A study of Mus musculus with 61 samples.

Results

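Binding of the transcription factor SALL1 was compared between microglia of 2 mouse strains, through the reproducible peak lists of chromatin immunoprecipitation followed by sequencing (ChIP-seq). The C57 list held 15410 peaks and the PWK list 3627, together 19037 of the 34490 peaks in the SALL1, SMAD4 and p300 lists of the series. A peak was called shared when it overlapped a peak of the other list by at least 1 bp in the mm10 coordinates as listed, and otherwise C57-only or PWK-only. By this rule 2403 C57 peaks and 2401 PWK peaks were shared, 13007 peaks were C57-only and 1226 were PWK-only. The study set out to learn how an enhancer of Sall1 shapes microglia, and the strain lists served it as a source of natural sequence differences between homologous sites. The C57 libraries carry the strain label C57/Bl6 and the genotype wild type, and the PWK libraries the strain label PWK and the same genotype. Each list came from 2 libraries. The methods give male mice of 8 to 12 weeks for C57BL/6J, while age and sex of the PWK mice are not given in the sources used here. PWK is a wild-derived inbred strain. Other groups used below are SPRET, a further wild-derived strain with 2245 SALL1 peaks, and EKO, in which both copies of the Sall1 super-enhancer were deleted, with 7 SALL1 peaks.

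Several features limit the comparison. There is 1 list per strain, so no spread between samples can be given, and the intervals below are 95% Wilson intervals that cover counting error only. Nothing states that the libraries of a strain came from separate animals. The depth of the SALL1 libraries is unknown here. The deposited lists hold fewer peaks than the study's text describes, and every share below depends on the lengths of these lists. The labels describe sorted CD45+ CD11b+ CX3CR1+ microglia, whereas the text of the study describes sorted nuclei positive for both SALL1 and PU.1. In a sorted population, fewer bound cells and weaker binding per cell cannot be told apart. The values of histone acetylation, p300 and SMAD4 used here come from WT and EKO mice and none from PWK mice, so they describe the C57 side of each site. The p300 libraries are labelled wild type for the Sall1 enhancer and come partly from microglia and partly from nuclei positive for PU.1. The SMAD4 libraries carry another label, SMAD4 WT. In the C57 table of H3K27ac, the histone H3 acetylation found at promoters and enhancers in use, 31 of 32 homeostatic microglia genes had a window within 1 kb of a start site with a mean above 16 normalized tags, against 0 of 10 neuron markers, 1 of 10 oligodendrocyte lineage markers, 1 of 8 astrocyte markers, 2 of 8 endothelial markers, 3 of 14 border macrophage markers and 2 of 12 monocyte and lymphocyte markers.

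SALL1 is a zinc finger protein that binds AT-rich DNA with an AATA core. In the adult mouse brain it is known as a regulator of microglia, the macrophages that live in brain tissue. The study also names oligodendrocytes and neurons as brain cells that express Sall1. SALL1 works on enhancers opened by lineage factors such as PU.1, and p300 is an acetyltransferase found at active enhancers. Inbred strains that differ at many bases offer pairs of homologous sites in which a base of a motif can be altered while the cell type stays the same.

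The sites that stood highest in each class are shown as 200 bases around the peak centre, with capitals for matches to any of the 7 motifs listed further on. They are given so that the letters behind each class can be seen. All 6 are the C57BL/6J reference from RefSeq's GRCm38.p6 (mm10), also at the PWK-only sites, so no PWK allele is shown.
Shared site in Elmo1, chr13:20207974-20208173, plus strand: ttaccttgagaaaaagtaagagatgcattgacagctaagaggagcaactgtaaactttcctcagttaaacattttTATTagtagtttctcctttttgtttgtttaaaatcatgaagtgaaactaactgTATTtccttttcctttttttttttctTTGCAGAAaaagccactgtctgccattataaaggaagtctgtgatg
Shared site near Numb, chr12:83929323-83929522, plus strand: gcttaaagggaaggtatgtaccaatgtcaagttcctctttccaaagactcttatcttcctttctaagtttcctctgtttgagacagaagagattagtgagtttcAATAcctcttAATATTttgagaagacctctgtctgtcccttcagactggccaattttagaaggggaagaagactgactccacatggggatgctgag
C57-only site in Cyfip1, chr7:55852885-55853084, plus strand: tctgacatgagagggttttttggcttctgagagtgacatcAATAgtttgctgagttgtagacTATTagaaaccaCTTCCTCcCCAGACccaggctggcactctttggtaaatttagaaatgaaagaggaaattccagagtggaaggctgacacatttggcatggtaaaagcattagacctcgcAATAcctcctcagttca
C57-only site near Rnase10, chr14:50997236-50997435, plus strand: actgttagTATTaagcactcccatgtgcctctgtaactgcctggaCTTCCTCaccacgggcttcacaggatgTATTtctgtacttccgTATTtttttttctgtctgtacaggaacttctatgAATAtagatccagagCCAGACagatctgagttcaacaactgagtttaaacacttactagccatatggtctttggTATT
PWK-only site in Gm47283, chrY:90798002-90798201, plus strand: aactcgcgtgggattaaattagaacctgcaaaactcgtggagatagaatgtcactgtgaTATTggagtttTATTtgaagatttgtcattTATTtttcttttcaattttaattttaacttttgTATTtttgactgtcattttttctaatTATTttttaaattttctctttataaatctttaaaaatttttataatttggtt
PWK-only site near Ext1, chr15:53557955-53558154, plus strand: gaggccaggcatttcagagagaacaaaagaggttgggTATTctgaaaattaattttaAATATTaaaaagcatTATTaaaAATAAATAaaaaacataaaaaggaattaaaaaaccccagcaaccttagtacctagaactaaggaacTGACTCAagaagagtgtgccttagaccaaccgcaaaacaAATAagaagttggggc
The shared sites held 2 and 3 matches to the AATA core, and the first also held 1 match to the C/EBP letters. Both C57-only sites held 1 match to the PU.1 letters and 1 to the SMAD letters beside 3 and 5 AATA cores. The PWK-only sites held 5 and 7 AATA cores, without a match to the PU.1 letters, and the second held 1 AP-1 match.

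Most PWK peaks lay where C57 microglia also had a peak, and most C57 peaks had no counterpart in the PWK list. Of the PWK peaks 66.2% (64.6 to 67.7) were shared, and of the C57 peaks 15.6% (15.0 to 16.2). The lists differ in length, so as many C57 peaks as PWK peaks were also taken from the top of the C57 list, ranked by the reproducibility score (idrScore, with a highest value of 1000) and then by enrichScore, the authors' enrichment score. At this equal length 38.5% of PWK peaks (36.9 to 40.1) overlapped a C57 peak. A further 27.7% of PWK peaks (26.3 to 29.2) overlapped only a C57 peak below that rank. The last C57 peak kept had an enrichScore of 85, and 3 of the 80 peaks with this score and an idrScore of 1000 fell inside. Of the 100 highest peaks of each list, 48 PWK peaks overlapped a C57 peak. The whole C57 list held 97 of the 100 highest PWK peaks, and the whole PWK list held 73 of the 100 highest C57 peaks.

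**Figure D1:**
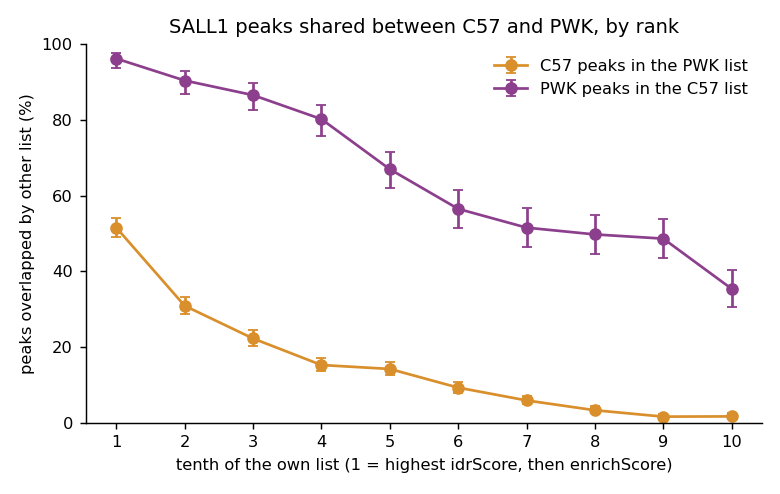
Share of peaks overlapped by the other strain's list (percent, vertical axis) by decile of the own list (horizontal axis, 1 is highest), with 95% Wilson intervals as bars. The share fell from 96.1% to 35.4% along the PWK list and from 51.5% to 1.69% along the C57 list.

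Sharing followed peak strength in both strains, as the plot by rank shows for 10 groups of like size (deciles). In the highest decile of the PWK list 349 of 363 peaks were shared (96.1%, 93.6 to 97.7), 291 of 363 in decile 4 (80.2%, 75.8 to 83.9) and in the lowest 128 of 362 (35.4%, 30.6 to 40.4). In the highest decile of the C57 list 794 of 1541 peaks were shared (51.5%, 49.0 to 54.0), 235 in decile 4 (15.2%, 13.5 to 17.1) and in the lowest 26 (1.69%, 1.15 to 2.46). Accordingly, the median enrichScore was 99 for shared and 40 for C57-only peaks in the C57 list, and 17 for shared and 11 for PWK-only peaks in the PWK list. The strongest C57-only peak had an enrichScore of 403 and the strongest PWK-only peak of 84, in lists with maxima of 464 and 238. Over the 2403 overlapping pairs, enrichScores of the strains ranked alike to a degree, with a Spearman correlation of 0.62 across pairs, which are not independent samples.

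The lists also differed as wholes. The median enrichScore was 46 in the C57 list and 14 in the PWK list, and 78.9% of C57 peaks but 53.1% of PWK peaks had an idrScore of 1000. Median peak widths were 232 bp and 314 bp. The part of enrichment or depth of the libraries in the lengths of the lists was not tested. Among the overlapping pairs, which the overlap rule limits to close positions, centres differed by a median of 3 bp (5th to 95th percentile -102 to 113 bp), and the median of each chromosome's first and second part ran from -11 to 25 bp. Of the 1226 PWK-only peaks 186 had a C57 centre within 1 kb. Within 10 kb, a C57 peak that did not overlap it lay near 61.5% of PWK-only peaks (58.7 to 64.2) and near 65.1% of shared PWK peaks (63.1 to 66.9).

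Shares were alike on most chromosomes. From 58.4% to 71.6% of PWK peaks were shared on the autosomes. On the X chromosome 71 of 84 PWK peaks were shared (84.5%, 75.3 to 90.7), which left 13 PWK-only peaks there. Sex of the PWK mice is not stated, and its part in this was not tested. On the Y chromosome the PWK list held 4 peaks, of which 2 were PWK-only.

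The 8 strongest shared sites lay in introns or in intergenic sequence, near genes of varied roles. The first, chr13:20207966-20208181 in an intron of Elmo1 (a Rac activator used in engulfment), ranked 2nd in C57 with an enrichScore of 454 and 3rd in PWK with 106. It was also in the SPRET, p300 and SMAD4 lists. The next, chr12:83929300-83929544, lay 7.49 kb upstream of Numb (an inhibitor of Notch signalling) and ranked 1st and 5th, with enrichScores of 464 and 81. The site in an intron of Rb1, 15.2 kb upstream of Lpar6 (a lysophosphatidic acid receptor), had enrichScores of 444 and 79. These 3 sites were among the 7 highest peaks of both lists. The site 26.2 kb upstream of Scel ranked 33rd in C57 (333) and 2nd in PWK (110), and it was in neither the SPRET, p300 nor SMAD4 list. Next came a site 11.9 kb upstream of Lgmn (the lysosomal protease legumain, 423 and 74), an intron of Ssh2 (a phosphatase that activates cofilin) whose nearest start site is that of Coro6 (387 and 72), an intron of Zfhx3 (a zinc finger homeobox factor, 322 and 72) and a site 121 kb from Trim33 (a ubiquitin ligase of TGF-beta signalling, 303 and 71).

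Strong C57 peaks without a PWK peak were found at genes of several roles. The site chr7:55852878-55853090, in an intron of Cyfip1 (a subunit of the actin-regulating WAVE complex), ranked 9th in C57 with an enrichScore of 403. Its window carried 419 and 243 normalized H3K27ac tags in the WT libraries and 701 and 202 in the EKO libraries, so the genotypes overlapped. The site chr14:50997231-50997439, 10.4 kb upstream of Rnase10, ranked 14th with 376. The window of the site in an intron of Rad51b (a DNA repair gene), which ranked 17th with 360, carried 668 and 367 tags in WT. The others were 21.2 kb upstream of Mgat4a (a glycosyltransferase, 348), at the promoter of H2-DMb2 (a chain of the class II loading chaperone, 344), in F11r (a junctional adhesion molecule, 330) and in Rnf216 (a ubiquitin ligase, 321). Of the 8 highest C57-only sites, 7 were in the SPRET list and 7 in the p300 list. Among the strongest C57-only sites a peak in SPRET was thus common. Of the 27 peaks among the 100 highest of C57 without a PWK peak, 17 (63.0%, 44.2 to 78.5) had a SPRET peak, and of the 73 with a PWK peak 45 (61.6%, 50.2 to 71.9).

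The strongest PWK-only sites had lower enrichScores than the strongest shared PWK sites apart from the first, and 3 of the 8 lay over 100 kb from the nearest start site. The site chrY:90797966-90798236, in an intron of Gm47283, ranked 4th in PWK with an enrichScore of 84 and lay in no open window of the C57 table. Of its 200 printed bases 55.5% are marked as repeats, and whether its reads map to a single place was not tested. The site chr15:53557878-53558230, in an intron of Samd12 with Ext1 (a heparan sulfate polymerase) as nearest start site 212 kb away, ranked 58th with 51. Its window carried 7.39 and 3.98 tags in WT and 35.1 and 9.71 in EKO, as deposited, without bringing the libraries to a common level. The site chr10:110335195-110335465, 335 kb upstream of Nav3 (a neuron navigator), ranked 85th with 46 and was in no open window. The site chr16:73596956-73597348, 814 kb from the start of Robo2 (an axon guidance receptor), ranked 155th with 39 and was also in the SPRET and SMAD4 lists. That window carried 75.1 and 63.7 tags in WT and 90.3 and 36.6 in EKO, so the genotypes overlapped. The remaining sites lay 37.4 kb upstream of Cxcl13 (a B cell chemokine, 36), in an intron of Lrp1b (a lipoprotein receptor, 35), 1.98 kb upstream of Napepld (an enzyme of endocannabinoid synthesis, 35) and near Gm21860 on the Y chromosome (35). Of these 8 sites 2 were in the SPRET list and 0 in the p300 list.

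Some genes had many peaks of more than 1 class. Nav3 and Marcks (a protein kinase C substrate) each had 9 shared peaks, and Ly86 (the partner of the receptor RP105), Qk (an RNA-binding protein) and Tmsb4x (thymosin beta 4, an actin-binding peptide) had 8. Csmd3 had 62 C57-only peaks, Plxdc2 45, Qk 44, Mbnl1 33 and Arhgap5 28. Nav3 also had the most PWK-only peaks with 12, followed by Dock4 with 9, Coro6 and Pla2g4a with 8 and Cltc with 6. Of 915 protein-coding genes nearest to a PWK-only peak, 708 (77.4%) were also nearest to a C57 peak.

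**Figure D2:**
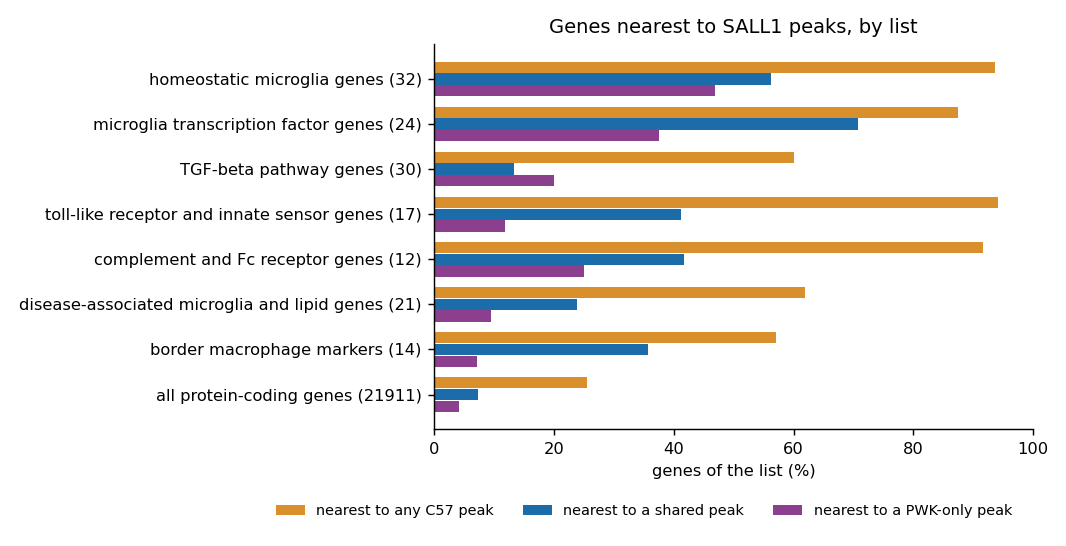
Percent of the genes of each list (horizontal axis) that were the nearest protein-coding gene of at least 1 C57, shared or PWK-only peak, with the number of genes in brackets. Of the homeostatic genes 56.2% were nearest to a shared peak, against 13.3% of the TGF-beta genes and 7.34% of all protein-coding genes.

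Microglia genes were near peaks of both strains. Over all 21911 protein-coding genes 25.6% were nearest to a C57 peak, 7.34% to a shared and 4.18% to a PWK-only peak, and 15.6% of the C57 peaks near genes were shared. These shares are the ground against which the lists stand, and no list was tested. Of 32 homeostatic microglia genes 30 were nearest to a C57 peak, 18 to a shared and 15 to a PWK-only peak, and 43 of their 217 C57 peaks (19.8%) were shared. Tgfbr2 (a TGF-beta receptor chain) had 24 C57 peaks, of which 4 were shared, Sall1 itself 19 with 4, Fcrls 15 with 4 and Entpd1 (an ATP-degrading ectoenzyme) 14 with 2. Chosen after their values were seen, Cx3cr1 (the fractalkine receptor) had 4 C57 peaks and Tmem119 1, without a shared peak. Of 24 microglia transcription factor genes 21 were nearest to a C57 peak and 17 to a shared one. Mef2c (31 C57 peaks, 5 shared), Runx1 (21, 3), Maf (18, 3) and Mef2a (14, 3) had the most C57 peaks of the factors beside Sall1. Of 30 TGF-beta pathway genes 18 had a C57 peak and 4 a shared one, with 8 of 88 peaks (9.09%) shared. After Tgfbr2, Smad3, a receptor-activated SMAD, had 9 C57 peaks and 0 shared, Smad7 (an inhibitory SMAD) had 8 with 2 shared, and Tgfbr1 had 8 C57 peaks, 0 shared and 5 PWK-only.

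Innate immune genes were mostly near C57 peaks. Of 17 toll-like receptor and sensor genes in the annotation 16 had a C57 peak and 7 a shared one, led by Ly86 (22 C57 peaks, 8 shared), Tlr7 (an RNA sensor, 12 and 3) and Tlr1 (8 and 0). Nlrp3 (an inflammasome sensor), which came next, had 6 C57 peaks, of which 3 were shared. Of 12 complement and Fc receptor genes 11 had a C57 peak and 5 a shared one. Of 21 disease-associated and lipid genes 13 had a C57 peak and 5 a shared one. Abca1 (a cholesterol exporter) had 13 C57 peaks and 0 shared, and Abcg1 and Cd9 had 7 each with 2 shared. Of 14 border macrophage markers 8 had a C57 peak (57.1%) and 5 a shared one (35.7%), both above the shares of all genes. Of their 12 C57 peaks 5 (41.7%) were shared, against 19.8% at homeostatic genes and 15.6% at all genes. Markers of other cells varied. A C57 peak was nearest to 1 of 10 neuron and 2 of 10 oligodendrocyte lineage markers, below the share of all genes, and to 3 of 8 astrocyte (37.5%, 17 peaks, of which 12 at Slc1a3, a glutamate transporter), 4 of 8 endothelial (13 peaks) and 6 of 12 monocyte and lymphocyte markers (13 peaks), above it. Shared peaks were nearest to 0 of 10 neuron, 0 of 10 oligodendrocyte lineage, 0 of 8 astrocyte, 1 of 8 endothelial and 3 of 12 monocyte and lymphocyte markers, the last 2 again above the 7.34% of all genes. Of the 13 C57 peaks at monocyte and lymphocyte markers 4 (30.8%) were shared.

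The genes that the study displays showed several patterns. P2ry12 (the purinergic receptor of resting microglia) was the nearest gene of 10 C57 peaks. Its strongest, chr3:59228884-59229092, ranked 78th with an enrichScore of 284, had no PWK peak and overlapped a SPRET peak ranked 42nd. A C57 peak at a start site ranked 402nd with 208 and was not shared either. Of 6 PWK peaks at P2ry12, 3 overlapped C57 peaks, with PWK enrichScores of 28, 26 and 9, and 3 did not, with 17, 16 and 14. At Slc2a5 (a fructose transporter) both C57 peaks (173 and 124) were shared (25 and 22 in PWK), and the other PWK peak had an enrichScore of 8. At Mgat5 (a glycosyltransferase) 2 of 7 C57 peaks were shared. At Itgax (the integrin CD11c) 4 C57 peaks and at Opcml (a neuronal adhesion molecule) 3 C57 peaks stood without any PWK or SPRET peak nearest to these genes. The highest of these ranked 2050th and 1810th.

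The classes lay at similar places in the genome. Promoters (1 kb upstream to 100 bp downstream of a start site) held 8.11% of shared C57 peaks (7.09 to 9.27), 8.15% of C57-only peaks (7.69 to 8.63) and 8.56% of PWK-only peaks (7.12 to 10.3). Introns held 52.4%, 56.5% and 54.6%, and intergenic sequence 36.2%, 31.1% and 32.1%. The median distance to the nearest start site of a protein-coding gene was 19.4 kb for shared and for C57-only peaks and 20.1 kb for PWK-only peaks. Among the 49 PWK-only peaks in the highest quintile of their list the median was 27.5 kb and 30.6% lay over 100 kb away, against 18.8 kb and 15.7% of 675 shared peaks of that quintile.

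**Figure D3:**
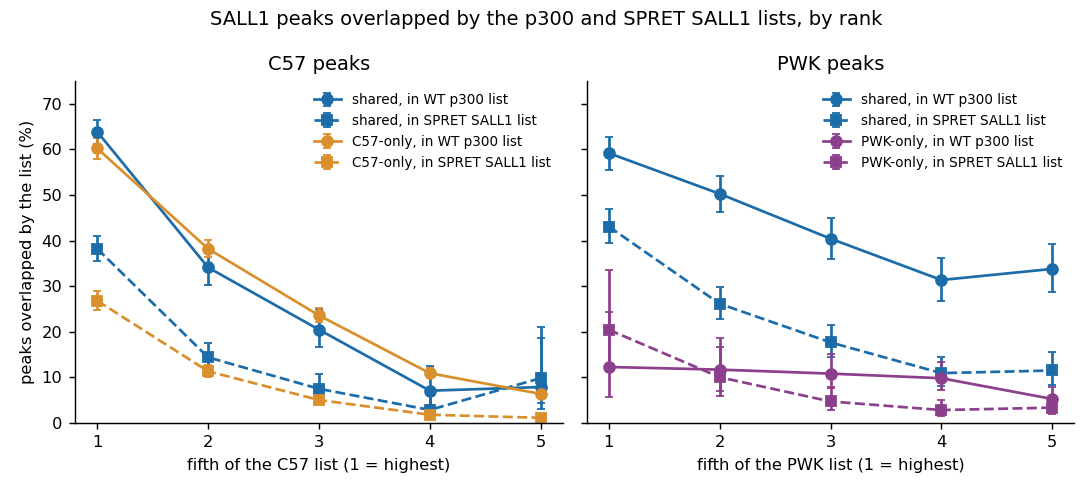
Percent of SALL1 peaks overlapped by the WT p300 list (circles, solid) and the SPRET SALL1 list (squares, dashed) by quintile of the own list (1 is highest), with 95% Wilson intervals. In the highest C57 quintile p300 overlapped 63.9% of shared and 60.2% of C57-only peaks, and in the highest PWK quintile 59.2% of shared and 12.2% of PWK-only peaks.

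In the C57 list, shared and C57-only peaks of like rank overlapped the p300 list at close shares, whereas few PWK-only peaks did. PWK-only peaks lack a C57 SALL1 peak by definition, and p300 was measured in C57 alone. The reverse comparison, PWK p300 at C57-only peaks, could not be made. Over all ranks the C57 p300 list overlapped 45.6% of shared C57 peaks (43.6 to 47.6), 24.6% of C57-only peaks (23.9 to 25.3) and 8.73% of PWK-only peaks (7.27 to 10.4). Within the highest quintile of the C57 list the shares were 63.9% (61.2 to 66.5) for 1270 shared and 60.2% (57.9 to 62.4) for 1812 C57-only peaks. In the next quintile they were 34.1% (30.3 to 38.0) and 38.2% (36.3 to 40.1). In the highest quintile of the PWK list, by contrast, p300 overlapped 59.2% of 676 shared peaks (55.4 to 62.8) and 12.2% of 49 PWK-only peaks (5.73 to 24.2). SMAD4, the nuclear partner of TGF-beta signalling, gave the same picture, with 36.7% (34.1 to 39.4) and 34.5% (32.4 to 36.8) in the highest C57 quintile and 4.73% of all PWK-only peaks (3.68 to 6.07). Differences between classes of peaks were not tested, since peaks of 1 list are not replicates.

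Over all ranks, SPRET peaks were more frequent at sites shared by C57 and PWK, while among the 500 highest C57 peaks the shares were close. They overlapped 25.1% of shared C57 peaks (23.4 to 26.9), 7.60% of C57-only (7.16 to 8.07) and 4.81% of PWK-only peaks (3.75 to 6.16). Within the highest C57 quintile the shares were 38.2% (35.6 to 40.9) and 26.8% (24.8 to 28.9). Rank was not matched inside that quintile. From the highest C57 decile to the next, shared peaks fell from 51.5% to 30.9%, and peaks with a SPRET peak from 40.0% to 23.0%. Among the 500 highest C57 peaks, SPRET peaks overlapped 50.5% of 313 shared (45.0 to 56.0) and 48.7% of 187 C57-only peaks (41.6 to 55.8). In EKO mice, where the Sall1 enhancer is deleted, the list held 7 SALL1 peaks. Of these, 4 overlapped both strains' lists, so they lay in shared peaks, and 3 overlapped neither. The 4 were nearest to Prdm1, Il17ra, Pik3cb and Heatr1.

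Open windows and H3K27ac regions of PU1 nuclei were most frequent at shared, less at C57-only and least at PWK-only peaks. The open windows of the table, which joins regions open in WT or in EKO, covered 96.3% of shared C57 peaks (95.5 to 97.0), 84.9% of C57-only (84.2 to 85.5) and 66.9% of PWK-only peaks (64.2 to 69.5). Windows open in the EKO list alone did not follow this order and covered 5.58%, 4.84% and 6.53%. H3K27ac regions of PU1 nuclei, which are microglial, overlapped 59.0% and 89.5% of shared C57 peaks in libraries 1 and 2, 35.7% and 70.7% of C57-only peaks and 25.4% and 55.8% of PWK-only peaks. Between C57 peaks of like rank the first step was not seen in either library in the 4 highest quintiles, while in the lowest shared peaks stood slightly higher. In library 1 the shares of shared and C57-only peaks were 80.1% and 81.7% in the highest C57 quintile and 52.8% and 62.3% in the next. In nuclei of neurons (NeuN) and of the oligodendrocyte lineage (Olig2) the shares were at most 15.9% in each of these 3 classes and 4 libraries and did not follow that order.

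**Figure D4:**
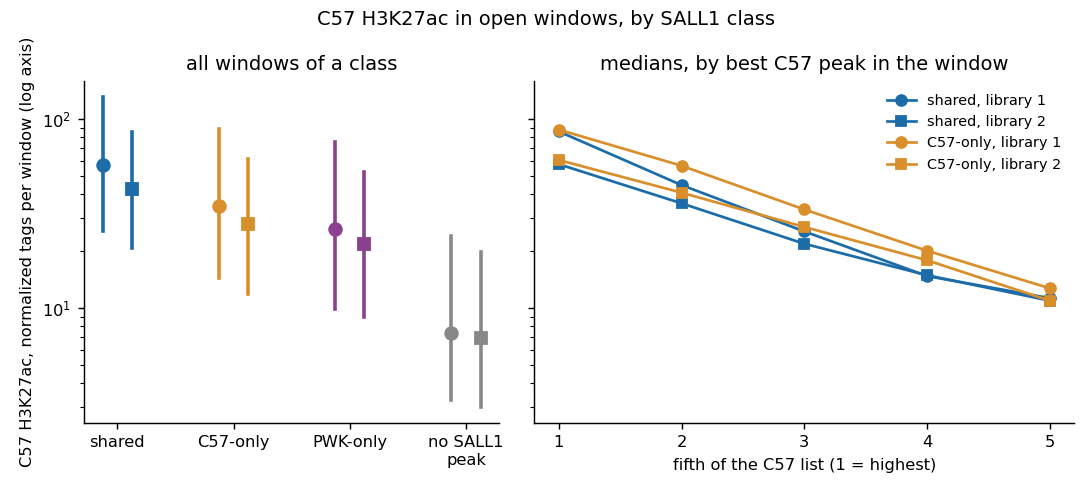
Normalized H3K27ac tags per 1000-bp window in the 2 C57 WT libraries (log axis; circles library 1, squares library 2), as medians with the middle 50% of windows as lines (left) and as medians by the best C57 peak in the window (right). Library 1 had medians of 57.5, 34.9 and 26.3 tags in shared, C57-only and PWK-only windows, and of 86.0 and 87.9 in shared and C57-only windows of the highest C57 quintile.

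C57 H3K27ac fell from shared to C57-only to PWK-only sites, and the first of these steps was not seen between peaks of like C57 rank. The table held 3443 windows with a shared peak, 14775 with C57-only peaks, 1017 with PWK-only peaks, 118 with C57-only and PWK-only peaks and 113776 without any. Windows overlap, so a peak can lie in several. Median tags in WT libraries 1 and 2 were 57.5 and 42.8 at shared, 34.9 and 27.9 at C57-only, 26.3 and 21.9 at PWK-only windows and 7.39 and 6.97 without a SALL1 peak. The 118 windows with C57-only and PWK-only peaks stood above all of these, at 85.8 and 62.2. As mean of the library medians of log2(tags + 1), shared windows stood at 5.66 ± 0.29 (SD, n = 2), C57-only at 5.01 ± 0.22 and PWK-only at 4.64 ± 0.18. Both libraries gave the same order. In windows whose best C57 peak was in the highest quintile, medians were 86.0 and 57.7 at shared and 87.9 and 60.7 at C57-only sites. In the next quintile they were 44.8 and 35.8 at shared and 56.7 and 40.8 at C57-only sites, so that the order was turned. By rank in the PWK list, windows of the highest quintile had 77.2 and 53.7 tags at shared and 16.8 and 13.9 at 50 PWK-only windows.

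In the fits of all 4 libraries, H3K27ac was called higher in EKO than in WT at a smaller share of shared and C57-only windows than of all windows. At PWK-only windows this share was larger. The shares lower in EKO stood closer to that of all windows. EKO was compared with WT by limma on log2(tags + 1) in the 55285 windows with a mean above 16 tags, among them 3103 of the 3443 shared, 11499 of the 14775 C57-only and 730 of the 1017 PWK-only windows, and a window was called at a Benjamini-Hochberg adjusted p under 0.05 and a fold above 2. EKO library 1 stood above the other 3 libraries in the median of every class, with a median of 100 tags at shared windows against 34.4 in EKO library 2 and 57.5 and 42.8 in WT. In the limma fit as deposited, 6 of 3103 shared windows (0.193%), 22 of 11499 C57-only windows (0.191%) and 0 of 730 PWK-only windows were lower in EKO, against 0.128% of all tested windows. Higher in EKO were 8 (0.258%), 30 (0.261%) and 14 (1.92%), against 0.814% of all. For the 730 PWK-only windows, where limma called 0 losses, 69 had an unadjusted p under 0.05 in either direction, and edgeR called 57 losses (7.81%, against 7.01% of all) and DESeq2 43 (5.89%, against 5.13%). Gains there were 92 with edgeR (12.6%, against 10.6% of all) and 76 with DESeq2 (10.4%, against 7.76%). To bring the libraries to a common level, the same fit was also made after quantile normalization. Then 188 shared windows (6.06%), 982 C57-only (8.54%) and 57 PWK-only windows (7.81%) were lower in EKO, against 7.56% of all tested windows. Higher were 211 (6.80%), 896 (7.79%) and 82 (11.2%), against 8.68%. All median log2 changes of EKO over WT lay near that of all tested windows. They were -0.09 at shared, -0.09 at C57-only and -0.05 at PWK-only windows after quantile normalization, with -0.03 over all, and 0.19, 0.22 and 0.26 as deposited, with 0.28 over all. The level rested on single libraries. The PWK-only median was -0.46 without EKO library 1 and 1.02 without EKO library 2, against -0.47 and 1.05 over all windows. Without EKO library 1, 122 shared (3.93%), 655 C57-only (5.70%) and 35 PWK-only windows (4.79%) were lower, against 5.44% of all. Without EKO library 2 these counts were 22 (0.709%), 150 of 11499 and 4 (0.548%), against 1.26% of all, and without either WT library they were 0, with an unadjusted p under 0.05 in 4 to 38 windows of a class.

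**Figure D5:**
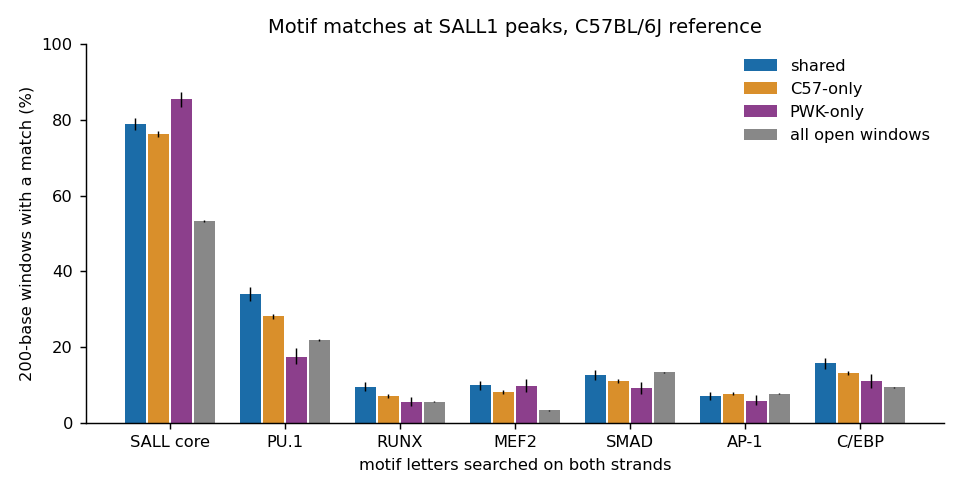
Percent of 200-base windows around peak centres with at least 1 match to the letters of a motif on either strand (vertical axis), for shared and C57-only peaks of the C57 list, PWK-only peaks and all open windows, with 95% Wilson intervals. The AATA core was matched at 85.5% and the PU.1 letters at 17.5% of PWK-only peaks.

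In sequence, PWK-only peaks taken over all ranks were richer in the AATA core and poorer in the PU.1 letters than the other classes. The letters searched in the mm10 reference on both strands were AATA (SALL core), GAGGAAG (PU.1), TGTGGTT (RUNX), AAAATAG (MEF2), GTCTGG (SMAD), TGANTCA (AP-1) and TTGCNNAA (C/EBP). The MEF2 letters always contain the AATA core, so each MEF2 match is also an AATA match and not a separate result. The AATA core was present at 78.8% of shared C57 peaks (77.2 to 80.4), 76.2% of C57-only (75.5 to 77.0) and 85.5% of PWK-only peaks (83.4 to 87.3), against 53.1% of all open windows. The mean number of matches was 2.02, 2.35 and 3.41, against 0.946. Median GC content moved with it, at 44%, 45% and 39.5%, against 50.5%, and its part in the match counts was not tested. The PU.1 letters were present at 33.9% of shared (32.1 to 35.9), 28.1% of C57-only (27.3 to 28.8) and 17.5% of PWK-only peaks (15.4 to 19.7), against 21.9% of open windows. MEF2 letters were found at 9.87%, 8.16% and 9.71%, against 3.34%. RUNX letters gave 9.45%, 7.08% and 5.46%, against 5.55%, and C/EBP letters 15.7%, 13.2% and 10.9%, against 9.37%. AP-1 letters, at 7.04%, 7.65% and 5.79%, were close to or below the 7.64% of open windows. SMAD letters were at 12.7% of shared and 9.05% of PWK-only peaks, against 13.3% of open windows.

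The letters also varied with rank. In the highest C57 quintile the PU.1 letters were at 36.1% of shared (33.5 to 38.8) and 36.3% of C57-only peaks (34.1 to 38.5), and the AATA core at 79.1% (76.8 to 81.2) and 73.7% (71.6 to 75.7). In the lowest C57 quintile, C57-only peaks had the PU.1 letters at 19.7% and a mean of 3.24 AATA matches. These values lay near the 17.5% and 3.41 of PWK-only peaks of all ranks. The share with the AATA core, 80.3% (78.8 to 81.7), lay below their 85.5%. PWK-only peaks of the lowest PWK quintile had the PU.1 letters at 12.8% (9.97 to 16.4). Shared C57 peaks of low rank also had many AATA cores, at 90.1% of 142 peaks in quintile 4 and 86.3% of 51 in the lowest. Their PU.1 letters were at 23.2% and 21.6%. In the PWK list the PU.1 letters were at 35.6% of shared peaks of the highest quintile (32.0 to 39.2) and 22.4% of PWK-only ones (11 of 49, interval up to 35.9), with mean AATA matches of 2.17 and 3.90. Peaks with over 50% of the 200 bases marked as repeats made up 5.54% of shared, 9.87% of C57-only and 11.5% of PWK-only peaks. As the letters are those of the reference strain, an AATA core or PU.1 match gained or lost in PWK is not visible here.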

How the data were processed

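SALL1 ChIP-seq lists of C57 and PWK microglia, with lists of SPRET and EKO SALL1, WT p300 and WT SMAD4, were read as deposited. Per the submitters' processing notes, reads were processed with Bowtie2, HOMER and DESeq2 on mm10. HOMER peak calls of single libraries, made with loose settings, were reduced by the authors to the peaks that passed IDR, a test of reproducibility, so each list is pooled and holds an idrScore and an enrichScore. Here the deposited scores served for ranking inside each list alone. The methods name mm10 for all mapped reads and describe no separate step for PWK reads. The deposited H3K27ac signal is tags per 1000-bp open window scaled by library by the authors, and the deposited lists of nuclei give regions with a tag signal. The deposited H3K27ac values were whole multiples of a step per library within 0.01 tags for at least 99.4% of values, and the tags recovered from them served edgeR 4.0.16 (quasi-likelihood, TMM) and DESeq2 1.42.0 as alternatives to limma 3.58.1 (R 4.3.3).

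Ties in rank were broken by chromosome and position. Places and nearest start sites came from GENCODE M21 basic (protein-coding genes for nearest genes), sequence from GRCm38.p6. Windows were assigned to shared peaks first, then to C57-only or PWK-only peaks. Named sites are the 8 highest peaks of each class with 1 per nearest gene, for shared sites by the worse of the percentile ranks. Named genes are the 5 with the most peaks per class, the leading members of fixed gene lists and genes the study displays, and those the rule named beyond the text are not reported here. The members and lists were chosen with earlier results of these data known. Simulated libraries were used to test the fit. With totals as unequal as deposited, limma without quantile normalization called no changed window, and after it most were recovered. The simulated spread was a set value, not taken from these libraries, whose own fit as deposited did call windows. Low counts as deposited do not show that windows were stable. P-values measure only the spread between these libraries, which may be technical.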

Additional observations from a re-analysis of the deposited data

How the results depend on the processing

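Requiring an overlap of 50% of both peaks lowered the share of PWK peaks in the C57 list from 66.2% to 58.6% and the share of C57 peaks in the PWK list from 15.6% to 13.8%, and centres at most 100 bp apart gave 58.7% and 13.8%. The upper 50% of each list gave 78.5% and 18.5%. Centres at most 500 bp apart, autosomes only and, at equal length, ranking by enrichScore alone moved no share beyond its interval. The counts of H3K27ac windows rested on the scaling. In the order shared losing, shared gaining, C57-only losing and C57-only gaining, they were 6, 8, 22 and 30 as deposited, 188, 211, 982 and 896 after quantile normalization, 186, 240, 938 and 1083 with edgeR and 153, 179, 722 and 781 with DESeq2. The shares of all tested windows losing and gaining were 0.128% and 0.814%, 7.56% and 8.68%, 7.01% and 10.6%, and 5.13% and 7.76% in these fits. A pseudocount of 4 left 4 shared gaining windows, and without a filter there were 4 shared gaining and 39 C57-only losing windows. The cause was not tested. The replicate numbers only name the libraries (correlation of deviations of library 1 of each genotype 0.0663). With the replicate number as a block, 20 shared and 129 C57-only windows were gaining and 45 C57-only windows losing. Leaving out each replicate gave 0 to 122 shared losing, 0 to 622 shared gaining, 0 to 655 C57-only losing and 0 to 2729 C57-only gaining windows. The lone library is assumed to vary like the other group. Without WT replicate 1 or WT replicate 2 all 4 counts were 0, without EKO replicate 1 they were 122, 42, 655 and 182, and without EKO replicate 2 they were 22, 622, 150 and 2729. With 300 bases, 5 of 7 motifs kept the direction of PWK-only against shared peaks, MEF2 and AP-1 turned, and all 7 kept that of shared against C57-only peaks. The order of WT H3K27ac medians of shared, C57-only and PWK-only windows held with a pseudocount of 4, with the filter and in each library alone. Depth of the SALL1 libraries, unknown here, limits any reading of a peak as absent.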
